A study of Drosophila melanogaster with 37 samples.

Results

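Levels of the genes of the vacuolar H+-ATPase (V-ATPase) of *Drosophila melanogaster* were followed in PolyA RNA from the head, body and gonad of each sex. Every gene whose name begins with Vha was taken from the deposited gene tables, which gave 33 of 17559 genes. The flies were isogenic Canton-S, a wild-type laboratory strain, dissected as young adults about a day after eclosion, with no treatment or transgene in any group. The 6 groups were female head, male head, female body, male body, ovary and testis, each with 2 PolyA libraries. The testis samples held the whole inner male reproductive system, with seminal vesicle, accessory gland and ejaculatory duct beside the testis proper. Nothing in the labels says that the 2 libraries of a group came from separate cultures of flies, so p-values measure the spread between these libraries, which may be technical.

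The V-ATPase is a rotary proton pump of membranes. Its peripheral V1 part hydrolyses ATP on the A and B subunits and turns a central stalk made of subunits D and F, while subunits E and G form the outer stalks and C and H join or regulate them. Its membrane V0 part carries protons across a ring of small proteolipids, c and c'', against the large subunit a, which also steers the pump to particular membranes, and subunits d and e complete it. The pump acidifies lysosomes, endosomes and synaptic vesicles in all animals, and in insects it also energises fluid transport in the Malpighian tubules. Flies encode several of its subunits in more than one gene, and the level of these paralogs in each tissue is the question followed here.

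By subunit, the 33 genes were Vha68-1, Vha68-2 and Vha68-3 for A, Vha55 for B, Vha44 for C, Vha36-1, Vha36-2 and Vha36-3 for D, Vha26 for E, Vha14-1 and Vha14-2 for F, Vha13 for G and VhaSFD for H. In V0, Vha100-1 to Vha100-5 encode a, Vha16-1 to Vha16-5 encode c, VhaPPA1-1 and VhaPPA1-2 encode c'', VhaAC39-1 and VhaAC39-2 encode d, and VhaM9.7-a to VhaM9.7-d encode e. VhaAC45 and VhaM8.9 encode accessory membrane proteins, the latter the fly prorenin receptor.

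The 3 genes of the catalytic A subunit lie close together on chromosome arm 2L. Vha68-2 (FBgn0263598, dm6 chr2L:12974322-12978607, plus strand) ends 178 bases before Vha68-3 (FBgn0032464, chr2L:12978786-12981293, plus strand), and Vha68-1 (FBgn0265262, chr2L:13000770-13004107, minus strand) lies 22162 bases from Vha68-2. The coding sequences of Vha68-1 and Vha68-2 were 86.2% identical, and Vha68-3 was 72.5% and 72.8% identical to them. The 24 bases that encode the nucleotide-binding P-loop are shown because they carry the catalytic function that the paralogs share, while their bases tell the transcripts apart. They are exonic coding sequence from the RefSeq dm6 genome, 5′ to 3′ on the coding strand, and capitals mark the bases that differ from Vha68-2.
Vha68-2 (chr2L:12976788-12976811, plus strand): ggagctttcggttgcggcaagact
Vha68-1 (chr2L:13002635-13002658, minus strand): ggTgcCttTggCtgcggcaagacC
Vha68-3 (chr2L:12980013-12980036, plus strand): ggagcGttTggAtgTggAaagacC
Vha68-1 differed from Vha68-2 at 5 of these bases and Vha68-3 at 6, all at the third position of a codon.

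The other paralogs were less alike than Vha68-1 and Vha68-2. Identity between coding sequences was 59.6% for Vha36-1 and Vha36-2, 79.3% for Vha36-1 and Vha36-3, 66.9% for the F genes, 68.9% for the c'' genes, 61.0% for the d genes, 61.2% to 71.5% among the a genes, 64.6% to 73.8% among the c genes and 57.0% to 66.1% among the e genes. Vha16-2 to Vha16-5 have 1 coding exon each and Vha16-1 has 3, and Vha100-3 has 1 while Vha100-1 has 10. Of the 595 exonic bases of Vha16-2, 84.5% lie over an antisense RNA gene, and 18.1% of those of Vha100-5 do. The strand setting of the PolyA libraries is not given in the sources used here, so reads from the shared bases of these genes cannot be told apart from reads of their antisense partners.

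Levels are given in TPM (a gene's share of all transcripts, corrected for length), rescaled to a sum of 1e+06 in each library after 37 mitochondrial genes were left out. Without this step the libraries are hard to set side by side, because mt:ATPase8 took 15.7% to 57.6% of the deposited TPM in 8 libraries but had a TPM of 0 in 4, namely the second replicate of both bodies and both gonads. TPM keeps no count of reads, so the depth is unknown beyond the deposited coverage. This gave, as a median over genes in each library, 3.14 to 7.42 reads per base for 1 TPM after rescaling. Group identity was checked with marker lists. The rhodopsin gene ninaE was at 22869 to 31654 TPM in heads and at most 46.7 TPM elsewhere, osk was at 606 and 1267 TPM in ovary and at 405 and 721 TPM in female body, and the sperm gene Mst87F was at 3237 and 2197 TPM in testis and at 1366 and 857 TPM in male body. Not every listed marker separated the groups, since the ovary marker grk was at 20.6 to 26.7 TPM in heads against 29.1 and 28.4 TPM in ovary, and the testis marker bol was at 116 to 183 TPM in heads against 544 and 828 TPM in testis. The bodies held transcripts of the gonads. All 5 male gland markers and the sperm gene dj were also above 0 in every female library, more so in replicate 1 than in replicate 2.

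Subunit A was encoded mainly by a different gene in heads, in bodies and ovaries, and in testis. Vha68-1 was at 435 and 317 TPM in female heads, 488 and 420 in male heads, 24.2 and 23.7 in female bodies, 53.7 and 59.1 in male bodies, 2.20 and 1.94 in ovaries, and 14.4 and 21.9 in testes. Vha68-2 was at 148 and 208 TPM in female heads, 152 and 206 in male heads, 383 and 560 in female bodies, 230 and 436 in male bodies, 302 and 513 in ovaries, and 31.5 and 88.5 in testes. Vha68-3 was at 162 and 179 TPM in testes and 95.5 and 67.6 in male bodies, and it stayed at or below 2.55 TPM in the other 8 libraries. For Vha68-1 the 4 head libraries were above all others and the ovaries were lowest. For Vha68-2 both testes were below every other library in rescaled TPM. In TPM as deposited testis replicate 2, at 87.5, was above female head replicate 1, at 58.6.

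The share of each paralog in the summed TPM of its subunit does not depend on how libraries are scaled. Vha68-1 made 60.4% to 76.2% of subunit A in the 4 head libraries, 5.90% and 4.06% in female bodies and 0.718% and 0.376% in ovaries. Vha68-2 made 93.7% and 95.9% in female bodies and 98.5% and 99.5% in ovaries. Vha68-3 made 77.9% and 61.8% in testes and 25.2% and 12.01% in male bodies. These shares did not overlap between the groups named, although the libraries of 1 group could stand apart, as Vha68-2 did at 15.2% and 30.6% in testes. In bulk samples such as these, fewer cells of a type and less RNA per cell cannot be told apart.

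**Figure D1:**
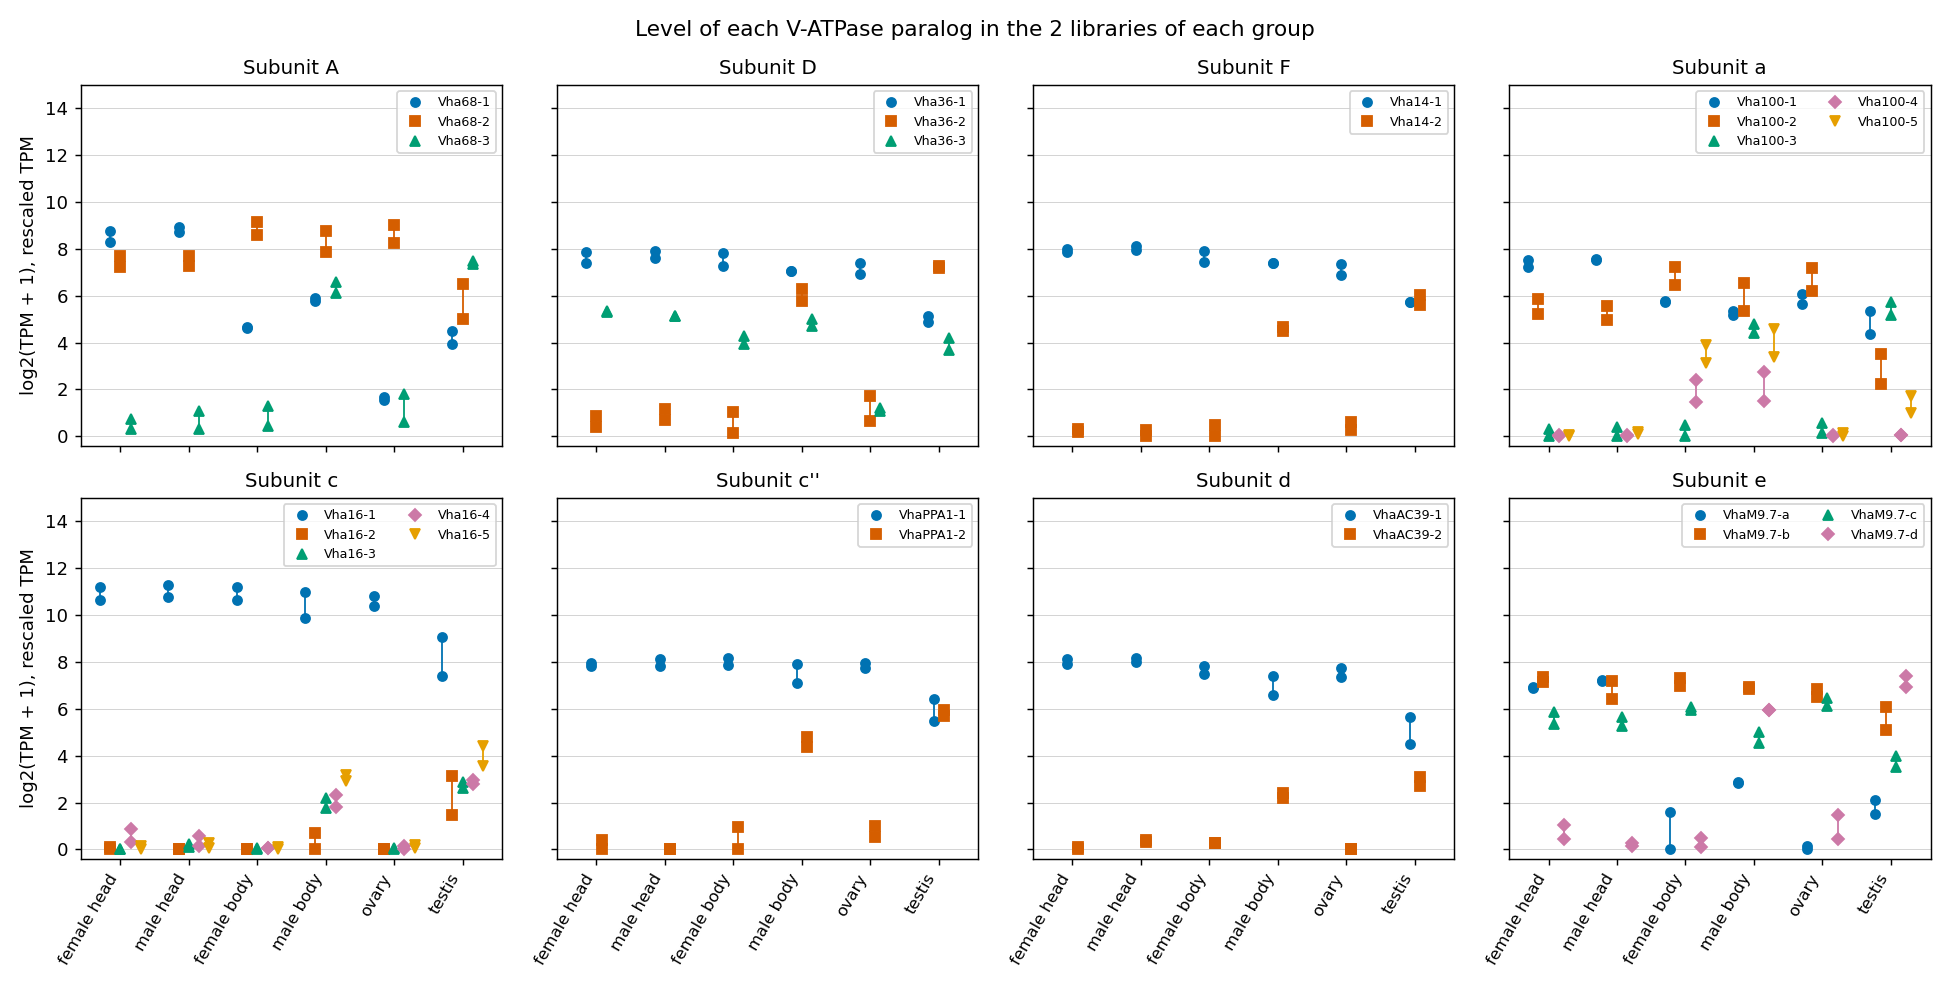
Levels of the paralogs of the 8 subunits that have more than 1 gene, as log2(TPM + 1) of rescaled TPM on the vertical axis, with the 6 groups along the horizontal axis. Each point is 1 library and a line joins the 2 libraries of a group. In each panel at least 1 paralog is near 0 in heads and ovaries and higher in male body and testis, while Vha68-1 and VhaM9.7-a are highest in heads.

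The rotor stalk subunits D and F had a broad gene and a gene of the male tract. Vha36-1 was at 236 and 166 TPM in female heads, 238 and 194 in male heads, 229 and 156 in female bodies, 131 and 133 in male bodies, 169 and 122 in ovaries, and 28.2 and 33.8 in testes. Vha36-2 was at 154 and 144 TPM in testes and 77.5 and 53.5 in male bodies, and at or below 2.28 TPM in the other 8 libraries. It made 79.3% and 73.9% of subunit D in testes and 33.1% and 24.6% in male bodies. Vha36-3, on the X chromosome (FBgn0040377, chrX:2579091-2580560, minus strand), was at 38.8 and 39.9 TPM in female heads, 34.0 and 33.7 in male heads, 14.4 and 18.6 in female bodies, 25.4 and 31.2 in male bodies, 1.35 and 1.13 in ovaries, and 12.04 and 17.1 in testes. In rescaled TPM heads were thus highest and ovaries lowest for Vha36-3, with no overlap between these and any other group. In TPM as deposited male bodies, at 13.0 and 30.3, overlapped heads, at 14.3 to 22.5. As shares of subunit D they overlapped too, at 10.8% and 14.3% in male bodies and 12.4% to 19.3% in heads. Ovaries were lowest on each of these measures.

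Of the F genes, Vha14-1 was at 252 and 235 TPM in female heads, 279 and 246 in male heads, 240 and 172 in female bodies, 170 and 166 in male bodies, 163 and 117 in ovaries, and 52.2 and 52.5 in testes. Vha14-2 (FBgn0037402, chr3R:6122592-6124405, plus strand) was at 48.3 and 64.2 TPM in testes, 24.1 and 21.3 in male bodies and at most 0.540 in the other 8 libraries. In testis the 2 genes were close to even, with Vha14-1 at 52.0% and 45.0% of subunit F, while Vha14-2 made 12.4% and 11.3% in male bodies and no more than 0.330% elsewhere.

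Subunit a, which directs the pump to particular membranes, was divided among 5 genes. Vha100-1, known in flies for its work in synaptic vesicles and photoreceptors, was at 185 and 151 TPM in female heads and 190 and 186 in male heads, against 53.6 and 52.1 in female bodies, 35.0 and 40.0 in male bodies, 49.4 and 65.5 in ovaries, and 19.8 and 40.0 in testes. Vha100-2 was at 86.6 and 150 TPM in female bodies, 71.9 and 145 in ovaries, 39.4 and 91.9 in male bodies, 36.0 and 56.4 in female heads, 30.6 and 46.9 in male heads, and 3.75 and 10.5 in testes. The first was thus highest in heads and the second lowest in testis, without overlap with any other group.

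Vha100-3 was at 35.4 and 52.0 TPM in testes and 27.0 and 20.5 in male bodies, and at most 0.492 elsewhere. Vha100-5 was at 7.67 and 13.9 TPM in female bodies, 9.46 and 22.8 in male bodies, 1.02 and 2.29 in testes, and at most 0.135 in heads and ovaries. Vha100-4, the neighbour of Vha100-2 on chromosome arm 3R, was at 1.76 to 5.66 TPM in bodies and reached at most 0.0547 in the other 8 libraries. The 6 markers of gut and Malpighian tubule, such as the trypsin gene alphaTry, summed to 2507 to 7424 TPM in the 4 bodies and to 33.2 to 149 TPM elsewhere, and betaTry was listed at 0 in heads and ovaries. The trypsins and Amy-p carried most of that sum. Uro was also higher in bodies, at 42.9 to 60.4 TPM against at most 1.23 elsewhere, but ZnT35C was highest in ovaries, at 106 and 105 TPM against 37.4 to 83.0 in bodies, and Irk1 was at 20.2 to 40.3 TPM in heads and ovaries against 33.2 to 43.9 in bodies. The part of these tissues in the body levels of Vha100-4 and Vha100-5 was not tested. As shares of subunit a, Vha100-1 made 72.8% to 85.9% in heads, Vha100-2 made 57.7% and 68.0% in female bodies and 59.0% and 68.9% in ovaries, and Vha100-3 made 59.0% and 49.6% in testes.

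The proteolipid subunit c was dominated by Vha16-1 everywhere. This gene was at 1579 and 2356 TPM in female heads, 1770 and 2499 in male heads, 1614 and 2367 in female bodies, 944 and 2050 in male bodies, 1333 and 1827 in ovaries, and 166 and 540 in testes, which were lowest in rescaled TPM. In TPM as deposited testis replicate 2, at 534, was above male body replicate 1, at 483. Vha16-1 made 87.6% and 92.9% of subunit c in testes, 98.6% and 99.3% in male bodies and nearly all elsewhere. The remaining c genes were low, with their highest group means in testis. Vha16-2, which shares most of its exonic bases with an antisense gene, was at 1.77 and 7.69 TPM in testes and 0.619 and 0 in male bodies. Vha16-5 was at 10.7 and 20.4 TPM in testes and 6.55 and 8.07 in male bodies, and Vha16-2, Vha16-3 and Vha16-4 did not exceed 7.69 TPM in any library.

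The second ring protein, c'', and subunit d each had a broad gene and a gene highest in testis. VhaPPA1-1 was at 225 and 250 TPM in female heads, 224 and 282 in male heads, 233 and 289 in female bodies, 138 and 240 in male bodies, 213 and 248 in ovaries, and 43.3 and 84.2 in testes. VhaPPA1-2 (FBgn0262514, chr3R:14899606-14900277, minus strand), 2052 bases from it, was at 50.2 and 61.4 TPM in testes, 27.1 and 19.7 in male bodies and at most 0.973 elsewhere, and made 53.7% and 42.2% of c'' in testes. VhaAC39-1 was at 243 and 277 TPM in female heads, 257 and 288 in male heads, 179 and 229 in female bodies, 94.3 and 168 in male bodies, 163 and 216 in ovaries, and 21.8 and 48.7 in testes. VhaAC39-2 reached only 5.55 and 7.45 TPM in testes, where it made 20.3% and 13.3% of subunit d.

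Subunit e, the smallest, had 4 genes with 4 patterns. VhaM9.7-a (FBgn0035521, chr3L:4262705-4263464, plus strand) was at 117 and 123 TPM in female heads and 145 and 148 in male heads, against 2.01 and 0 in female bodies, 6.41 and 6.04 in male bodies, 0.104 and 0 in ovaries, and 1.88 and 3.32 in testes. VhaM9.7-b was broad, at 138 and 165 TPM in female heads, 145 and 85.7 in male heads, 158 and 123 in female bodies, 114 and 120 in male bodies, 112 and 90.3 in ovaries, and 33.7 and 67.0 in testes. The first exceeded 6.41 TPM in the 4 head libraries alone, and neighbouring groups overlapped for the second.

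VhaM9.7-c was at 40.0 and 57.0 TPM in female heads, 37.5 and 49.7 in male heads, 61.6 and 67.2 in female bodies, 22.4 and 31.2 in male bodies, 67.7 and 86.9 in ovaries, and 10.3 and 15.1 in testes. In rescaled TPM it was the only V-ATPase gene with its highest group mean in ovary. In TPM as deposited Vha44 also had its highest group mean there, at 136 and 238 in ovaries against 108 and 231 in female bodies. VhaM9.7-d (FBgn0038458, chr3R:16975204-16975697, plus strand) was at 122 and 168 TPM in testes and 61.0 and 60.9 in male bodies, and at most 1.73 elsewhere. As shares of subunit e, VhaM9.7-a made 35.5% to 52.1% in heads, VhaM9.7-c made 37.2% and 49.0% in ovaries, and VhaM9.7-d made 72.6% and 66.3% in testes and 29.9% and 28.0% in male bodies.

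**Figure D2:**
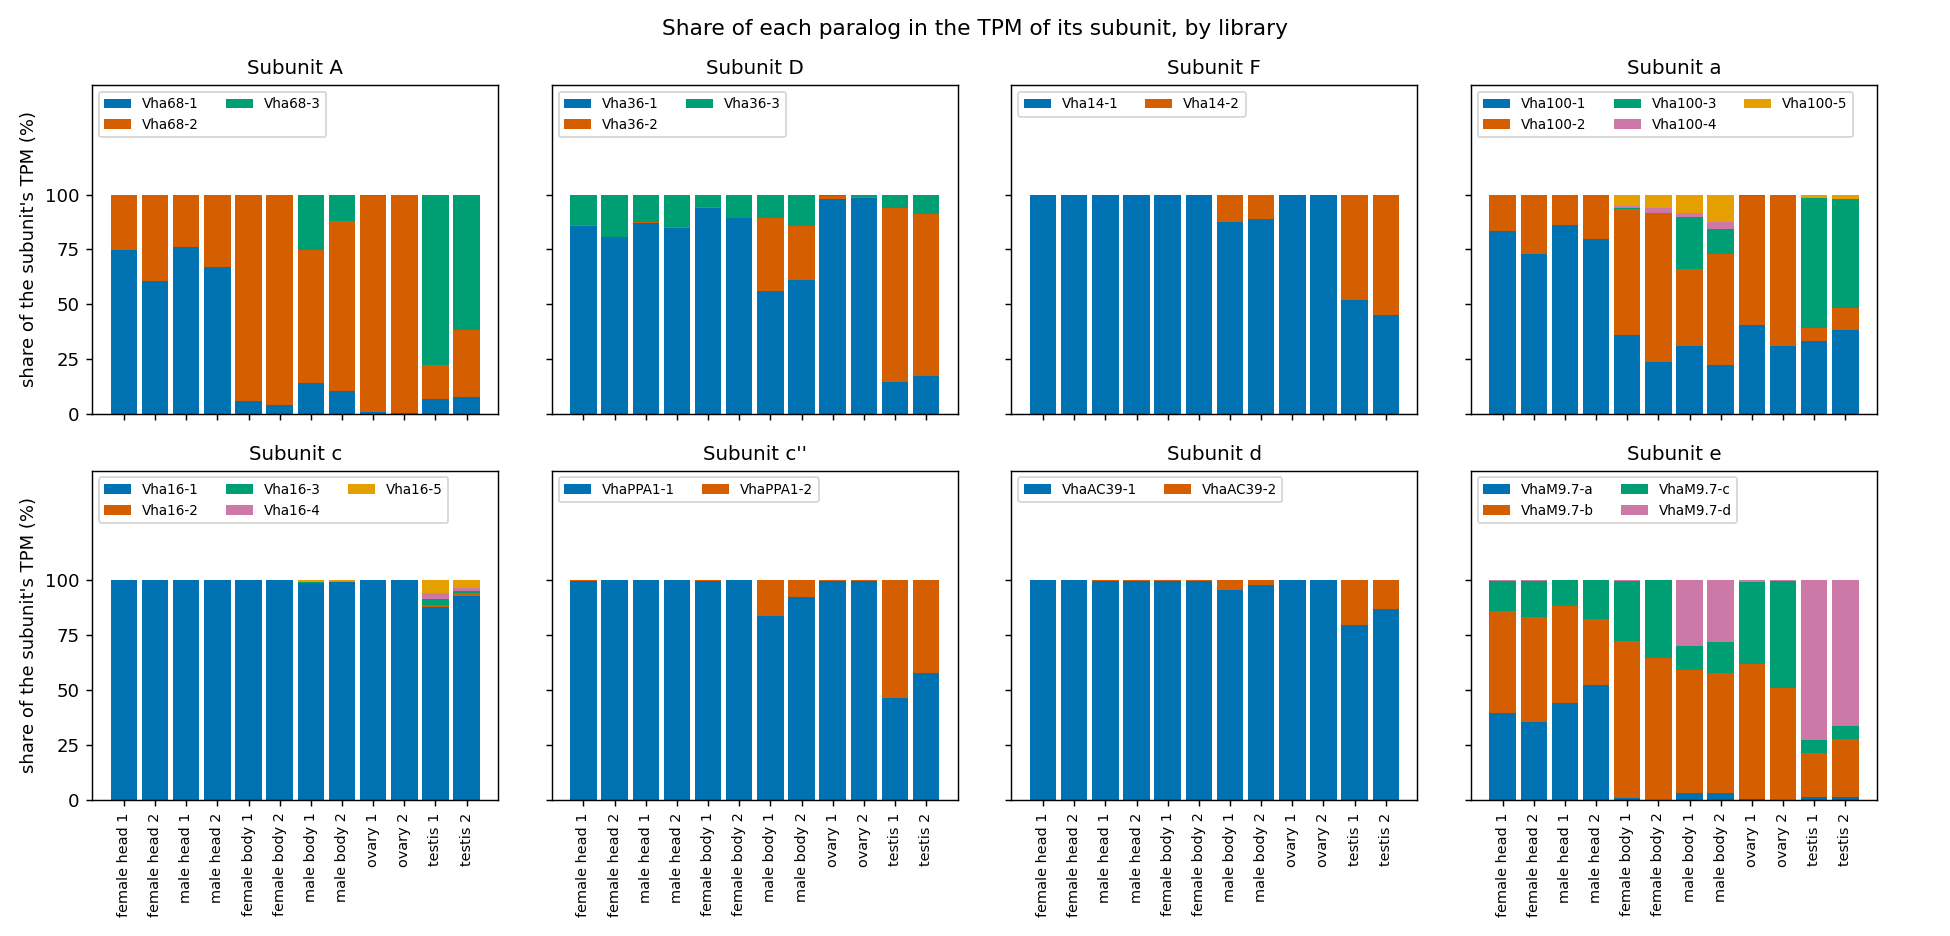
Share of each paralog in the summed TPM of its subunit, in percent, with 1 bar for each of the 12 libraries. Vha68-1 takes 60.4% to 76.2% of subunit A in heads and Vha68-3 takes 77.9% and 61.8% in testes, while Vha16-1 keeps at least 87.6% of subunit c in every library.

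The subunits with a single gene were expressed in every group. Vha13, the G subunit of the outer stalk and the highest of them by its mean, was at 801 and 799 TPM in female heads, 866 and 871 in male heads, 973 and 756 in female bodies, 657 and 699 in male bodies, 747 and 656 in ovaries, and 263 and 302 in testes. VhaSFD, the regulatory H subunit and the lowest by its mean over the 12 libraries, was at 153 and 180 TPM in female heads, 169 and 201 in male heads, 103 and 137 in female bodies, 94.2 and 158 in male bodies, 68.1 and 102 in ovaries, and 47.8 and 94.8 in testes. Vha55 ranged from 83.7 to 653 TPM, Vha26 from 163 to 759, Vha44 from 63.9 to 268, VhaAC45 from 36.3 to 327 and VhaM8.9 from 52.0 to 275, each with its lowest library in testis. Summed by subunit, c was highest in 11 of 12 libraries and G in the first testis library, and the highest subunit stood 9.59 to 19.6 times above the lowest.

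In rescaled TPM all V-ATPase genes together came to 1750 and 2819 TPM in testes and to 4062 to 8015 TPM in the other libraries. This order holds for rescaled TPM only, since the direction between ovary and testis turned for several broad genes on another scale, given below. In rescaled TPM the group with the highest mean was male head for 13 genes, testis for 11, female body for 4, female head for 2, male body for 2 and ovary for 1. For several of the 13, such as Vha55 and VhaAC39-1, the male head libraries overlapped those of female heads. The 13 also depended on the scale. In TPM as deposited Vha16-1 was at 745 and 1456 in male heads and at 917 and 2314 in female bodies. Several others of the 13 also had their highest mean in female body there. The 11 genes highest in testis were Vha68-3, Vha36-2, Vha14-2, Vha100-3, Vha16-2, Vha16-3, Vha16-4, Vha16-5, VhaPPA1-2, VhaAC39-2 and VhaM9.7-d, so that subunits A, D, F, a, c, c'', d and e each had at least 1. Together they made 34.3% and 25.4% of all V-ATPase TPM in testes, 8.11% and 4.13% in male bodies and 0.0111% to 0.190% in the other 8 libraries.

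Groups were then compared in limma, on the log2(TPM + 1) scale, over the 13332 genes whose mean reached 1 TPM, and a gene was called at an adjusted p under 0.05. Of the 33 V-ATPase genes 32 were tested, Vha16-2 being below the minimum. Without the testis and male body libraries 11 genes would have missed it, and without the body libraries Vha100-4 and Vha100-5 would have, so the tests of these genes describe genes that had to differ. Comparisons that use the same group share its libraries. A second scale was the median of ratios over 6373 genes expressed in every library. It shifted the log2 difference of the median gene most in comparisons that use testis or male body. The shift was from 0.65 to -0.35 in male head minus testis and from 0.10 to -0.78 in ovary minus testis. In female head minus female body it was smaller, from -0.08 to 0.02. Values on this scale are given where they differ.

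Between female and male heads no V-ATPase gene was called. The 3 genes with the widest excess in female heads over bodies stood at -0.29 ± 0.45 for VhaM9.7-a, -0.28 ± 0.26 for Vha68-1 and -0.17 ± 0.32 for Vha100-1 (log2 difference, female minus male, ± SE of the fit). Of 32 genes 0 passed in limma and 0 had an unadjusted p under 0.05, beside 0.188% of all genes tested that were called. The 7 other settings and the 4 fits without a head library gave 0 calls too, and with pseudocount 0.1 the number of genes with an unadjusted p under 0.05 was 2. These results do not show that the levels were equal.

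Heads differed from bodies and ovaries in the genes named above. In female head against female body, VhaM9.7-a was higher by 6.12 ± 0.45 (adjusted p = 2.8e-06), Vha68-1 by 3.90 ± 0.26 (1.5e-06), Vha100-1 by 1.64 ± 0.32 (0.0021) and Vha36-3 by 1.21 ± 0.25 (0.0030) on the log2 scale. Vha100-5 was lower in heads, at -3.48 ± 0.40 (adjusted p = 7.3e-05), and so was Vha100-4, at -1.91 ± 0.38 (0.0026). Both passed the minimum only with the body libraries, so their p-values and their count are no support. These 4 higher and 2 lower genes of 32 stand beside 21.3% and 23.9% of all genes tested, and the median log2 difference was 0.03 for V-ATPase genes and -0.08 for all genes. The share of higher calls among all genes moved from 47.2% to 58.1% with the median of ratios, where 7 V-ATPase genes were higher and 3 lower, and to 31.6% with TPM as deposited, where 2 were higher and 1 was lower. In TPM as deposited the calls of Vha100-1, at 0.98 (adjusted p = 0.23), and Vha36-3, at 0.56 (0.49), were lost, and Vha100-4 was below the minimum. With the replicate block Vha68-2 and Vha100-2, at -1.40 ± 0.52 and -1.32 ± 0.58 in heads, became calls (adjusted p = 0.0013 and 0.00082, against 0.052 and 0.094 without it).

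Female heads exceeded ovaries in 5 V-ATPase genes. Vha68-1 was higher in female heads by 6.92 ± 0.26 (adjusted p = 4.4e-08), VhaM9.7-a by 6.84 ± 0.45 (9.4e-07), Vha36-3 by 4.17 ± 0.25 (5.5e-07), Vha100-1 by 1.54 ± 0.32 (0.0024) and Vha14-1 by 0.81 ± 0.24 (0.018). The call of Vha14-1 was lost without either female head library or without ovary replicate 2, with adjusted p values of 0.062 to 0.12, and with TPM as deposited, where it stood at 0.02 (0.98). Vha100-1 lost its call there too, at 0.75 (0.31). No gene was lower, so that 5 of 32 were higher and 0 lower, beside 27.5% and 25.1% of all genes tested, with medians of 0.17 for V-ATPase genes and -0.14 for all genes. The replicate block gave 8 higher and 3 lower, and the added lower genes were Vha68-2 at -1.16 (adjusted p = 0.0031), Vha100-2 at -1.16 (0.0014) and VhaM9.7-c at -0.67 (0.011). The added higher genes were VhaSFD at 0.99 (0.0036), Vha55 at 0.67 (0.015) and Vha26 at 0.62 (0.019), but with TPM as deposited VhaSFD stood at 0.20 (0.86) and the signs of Vha55 and Vha26 turned, to -0.12 and -0.17. On the median-of-ratios scale 13 were higher and 0 lower, and the share of higher calls among all genes moved from 52.3% to 63.5%; with TPM as deposited it was 40.2% and 3 V-ATPase genes were higher.

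Female bodies exceeded ovaries in 4 V-ATPase genes. Vha100-5 was higher in body by 3.42 ± 0.40 (adjusted p = 0.00018), Vha68-1 by 3.02 ± 0.26 (2.6e-05), Vha36-3 by 2.96 ± 0.25 (2.4e-05) and Vha100-4 by 1.92 ± 0.38 (0.0056). These 4 of 32 were the only calls, with 0 lower, beside 16.7% and 0.12% of all genes tested, and the medians were 0.22 for V-ATPase genes and -0.16 for all genes. As Vha100-5 and Vha100-4 passed the minimum only with the body libraries, their p-values and their part of the count are no support. Ovary transcripts were part of the body libraries, as osk showed.

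**Figure D3:**
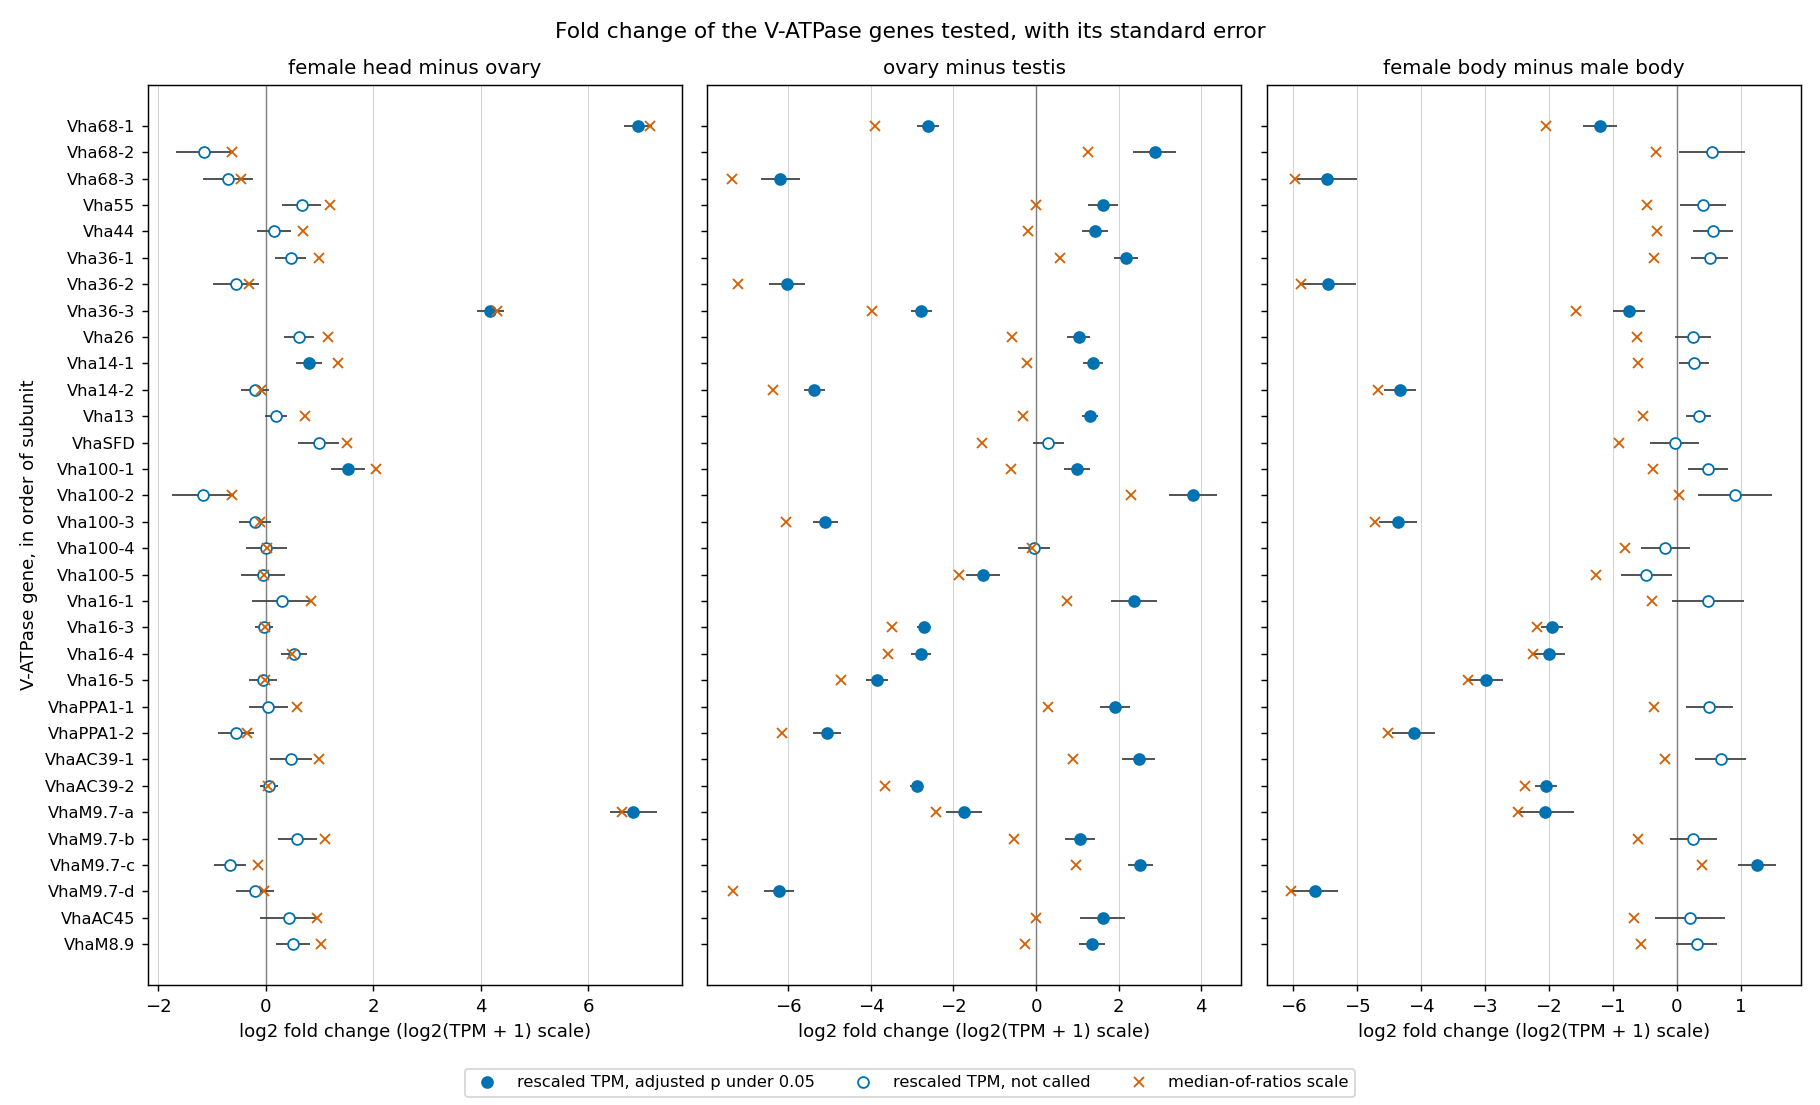
Log2 fold change of the 32 V-ATPase genes tested in 3 comparisons, with the standard error as a bar; filled points were called and open points were not, and crosses give the value on the median-of-ratios scale. Vha68-1 and VhaM9.7-a stand at 6.92 and 6.84 in female head minus ovary, and VhaM9.7-d, Vha68-3 and Vha36-2 lie at -5.44 or lower in both ovary minus testis and female body minus male body.

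In males, heads also exceeded bodies in the genes that were high in heads. VhaM9.7-a was higher in male heads by 4.35 ± 0.45 (adjusted p = 1.7e-05), Vha68-1 by 2.98 ± 0.26 (5.6e-06) and Vha100-1 by 2.30 ± 0.32 (0.00014). Vha36-3 differed by 0.26 ± 0.25 and was not called, and its sign turned to -0.23 with TPM as deposited and to -0.36 with the median of ratios. Lower in heads were VhaM9.7-d at -5.75 ± 0.36 (8.8e-07), Vha68-3 at -5.66 ± 0.47 (3.8e-06) and Vha36-2 at -5.10 ± 0.43 (4.5e-06), and the body genes Vha100-5 at -3.85 ± 0.40 (2.0e-05) and Vha100-4 at -2.08 ± 0.38 (0.0010). In all 8 of 32 were higher and 12 lower, beside 29.9% and 31.6% of all genes tested, with medians of 0.23 and 0.21. The 12 lower were the tested genes highest in testis, with Vha100-4 and Vha100-5. They passed the minimum only through testis and male body or through bodies, so their p-values and their count are no support. Without male head replicate 1, male head replicate 2 or male body replicate 1 the higher genes fell from 8 to 3. The 5 whose calls were lost in each of these fits, and also on both other scales, were VhaAC39-1 at 1.11, Vha55 at 1.03, Vha44 at 0.89, Vha26 at 0.85 and Vha14-1 at 0.64. With the median of ratios 3 were higher and 14 lower, and the share of higher calls among all genes moved from 48.6% to 33.2%; with TPM as deposited it was 27.4%, and 3 V-ATPase genes were higher and 11 lower. The block made calls of Vha68-2 at -0.84 (adjusted p = 0.016), Vha100-2 at -0.66 (0.027), VhaSFD at 0.59 (0.040), Vha36-1 at 0.70 (0.025) and VhaM9.7-c at 0.69 (0.0086). On the median-of-ratios scale the last 3 stood at -0.044, 0.066 and 0.071.

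In rescaled TPM the gonads of the sexes differed in nearly every V-ATPase gene tested, with 30 called. With TPM as deposited 22 were called, and with the median of ratios 22. The genes highest in testis passed the minimum only through testis and male body, so their p-values and their part of these counts are no support. Vha100-5, lower in ovary at -1.29 (adjusted p = 0.016), passed it only with the body libraries. Lower in ovary were VhaM9.7-d at -6.23 ± 0.36 (adjusted p = 5.2e-07), Vha68-3 at -6.19 ± 0.47 (1.9e-06), Vha36-2 at -6.04 ± 0.43 (1.3e-06), Vha14-2 at -5.37 ± 0.25 (3.1e-07), Vha100-3 at -5.10 ± 0.30 (5.2e-07) and VhaPPA1-2 at -5.07 ± 0.34 (9.2e-07). Vha36-3 at -2.78 ± 0.25 (6.1e-06), Vha68-1 at -2.61 ± 0.26 (1.2e-05) and VhaM9.7-a at -1.75 ± 0.45 (0.0056), each with its highest group mean in heads, were also lower in ovary. Higher in ovary were Vha100-2 by 3.80 ± 0.58 (0.00022), Vha68-2 by 2.87 ± 0.52 (0.00068) and VhaM9.7-c by 2.53 ± 0.30 (4.2e-05), and these 3 stayed higher with the median of ratios, at 2.29, 1.26 and 0.96.

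For the broad subunits the direction between ovary and testis depended on the scale. Vha13 was higher in ovary by 1.31 ± 0.20 (adjusted p = 0.00024) but stood at -0.31 with the median of ratios. Vha26 was higher by 1.03 ± 0.29 (0.0087) but at -0.59 there, Vha100-1 by 0.99 ± 0.32 (0.018) but at -0.60, and VhaSFD, at 0.30 ± 0.38 and not called, was at -1.31. The signs of Vha44 (1.43 to -0.19), Vha14-1 (1.39 to -0.22), VhaM8.9 (1.36 to -0.26) and VhaM9.7-b (1.07 to -0.54) turned there too. Vha55 went from 1.63 ± 0.36 to 0.01 and Vha16-1 from 2.38 ± 0.56 to 0.75, and neither was a call there. The calls of Vha26 and Vha100-1 were also lost without ovary replicate 2 or without testis replicate 1. In all 16 of 32 were higher in ovary and 14 lower, beside 39.3% and 33.3% of all genes tested, with a median of 0.64 for V-ATPase genes and 0.10 for all genes. Most of the 14 were testis-high genes, whose part of the count is no support. By the median of ratios 4 were higher and 18 lower, the median gene stood at -0.78, and the share of higher calls among all genes moved from 54.1% to 27.4%. With TPM as deposited that share was 49.2%, and 9 V-ATPase genes were higher and 13 lower.

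Male heads and testes differed in 31 of the 32 genes tested. VhaM9.7-a was higher in heads by 5.38 ± 0.45 (adjusted p = 2.5e-06), Vha68-1 by 4.60 ± 0.26 (2.3e-07) and VhaAC39-1 by 3.02 ± 0.40 (7.2e-05), and VhaM9.7-d was lower at -6.96 ± 0.36 (1.5e-07), Vha68-3 at -6.74 ± 0.47 (7.5e-07) and Vha36-2 at -6.30 ± 0.43 (6.8e-07). In all 20 of 32 were higher and 11 lower, beside 46.2% and 30.3% of all genes tested, with medians of 1.66 for V-ATPase genes and 0.65 for all genes. The lower genes were Vha100-5 and the 10 testis-high genes that were tested. These too passed the minimum only through bodies or through testis and male body. Their p-values, the count of 11 and their part of the 31 are thus no support. On the median-of-ratios scale 13 were higher and 12 lower, the median gene stood at -0.35, and the share of higher calls among all genes moved from 60.4% to 41.5%; with TPM as deposited it was 43.4%, and 6 V-ATPase genes were higher and 10 lower. The call of Vha36-3, at 1.18 ± 0.25 (0.0018), was lost on both of these scales.

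Female and male bodies differed chiefly in the testis-high genes. VhaM9.7-d was lower in female bodies at -5.65 ± 0.36 (adjusted p = 2.3e-06), Vha68-3 at -5.47 ± 0.47 (7.4e-06) and Vha36-2 at -5.44 ± 0.43 (5.0e-06). Also lower were VhaM9.7-a at -2.06 ± 0.45 (0.0031), Vha68-1 at -1.20 ± 0.26 (0.0032) and Vha36-3 at -0.74 ± 0.25 (0.029), the last of which lost its call without female body replicate 1 or without male body replicate 2 (adjusted p = 0.15 for each). VhaM9.7-c was higher by 1.25 ± 0.30 (0.0057), and was not a call with the median of ratios, at 0.40. With TPM as deposited the calls of Vha68-1, at -1.11 (0.086), Vha36-3, at -0.65 (0.34), and VhaM9.7-c, at 1.31 (0.12), were lost. The neuronal marker nSyb stood at 22.6 and 23.0 TPM in female bodies and at 46.3 and 63.8 TPM in male bodies, and its part in the differences of Vha68-1 and VhaM9.7-a was not tested. In all 1 of 32 was higher and 13 lower, beside 27.5% and 32.3% of all genes tested, with medians of 0.09 and -0.09. Of the 13, all but VhaM9.7-a, Vha68-1 and Vha36-3 were testis-high genes. These passed the minimum only through testis and male body, so their p-values and their part of the count are no support. Under the median of ratios 0 were higher and 16 lower, the median gene stood at -0.81, and the share of higher calls among all genes moved from 46.0% to 22.5%. With the block Vha100-2, at 0.91 (adjusted p = 0.0059), and VhaAC39-1, at 0.68 (0.039), were higher too, but on the median-of-ratios scale they stood at 0.042 and -0.19.

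The sex difference of bodies was set against that of heads by an interaction term. VhaM9.7-d (-6.19 ± 0.51, adjusted p = 3.7e-05), Vha68-3 (-5.30 ± 0.66, 0.00015) and Vha36-2 (-5.15 ± 0.61, 0.00012) had the widest gaps. All 11 calls were lower, 10 of them testis-high genes, which passed the minimum only through testis and male body and so had to differ, and the other VhaM9.7-a at -1.77 (0.044), beside 21.1% higher and 25.4% lower of all genes tested. By the median of ratios 0 were higher and 13 lower and the share of higher calls among all genes moved from 45.4% to 19.8%; with TPM as deposited it was 32.3% and 10 genes were lower, the call of VhaM9.7-a being lost at -1.54 (0.11). The block added VhaM9.7-c at 1.11 (adjusted p = 0.0058) and Vha36-3 at -0.96 (0.025), which stood at 1.24 (0.34) and -0.79 (0.47) with TPM as deposited.

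Male bodies were set against testes. The testis-high genes were grouped by their highest mean, so a lower level in male body follows from that choice and is given as a description. Vha14-2 stood at -1.26 ± 0.25, VhaPPA1-2 at -1.23 ± 0.34 and VhaM9.7-d at -1.22 ± 0.36 (log2 difference, body minus testis). Higher in body were Vha100-2 by 3.05 ± 0.58 (adjusted p = 0.0027), Vha100-5 by 2.61 ± 0.40 (0.00083) and Vha68-2 by 2.56 ± 0.52 (0.0038), the last not a call with TPM as deposited, at 2.19 (0.066). In all 18 of 32 were higher and 9 lower, beside 28.6% and 15.5% of all genes tested, with medians of 1.03 and 0.14, and the 9 lower genes were testis-high genes. Among the higher genes Vha100-5 passed the minimum only with the body libraries, so its p-value and its part of the count are no support. With pseudocount 0.1 none was called lower. The total of 27 fell to 13 (9 higher and 4 lower) without male body replicate 2. With the block Vha68-3, at -1.07, was a lower call too (adjusted p = 0.014, against 0.090 without it). VhaSFD at 0.85 (adjusted p = 0.010) and Vha44 at 0.81 (0.014) were higher with it, and on the median-of-ratios scale they stood at 0.29 and 0.25. On the median-of-ratios scale 13 were higher and 11 lower and the share of higher calls among all genes moved from 64.9% to 40.3%; with TPM as deposited it was 44.2%, and 4 were higher and 10 lower.

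The testis-high V-ATPase genes were set beside the testis markers in the male body. With each male body library set against the like-numbered testis library, their median percentage of the testis level was 54.0% in replicate 1 and 37.8% in replicate 2. The 6 testis markers had medians of 61.0% and 37.2%, and 5 male gland markers had 52.3% and 37.5%. In replicate 2 Vha68-3 stood at 37.8%, Vha36-2 at 37.1%, VhaM9.7-d at 36.3% and Vha16-5 at 39.5%, beside 37.2% for betaTub85D and 39.0% for Mst87F. Vha16-4 at 58.7%, VhaAC39-2 at 48.5% and Vha16-2, listed at 0, lay farthest from the marker range of 32.5% to 39.3% there.

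**Figure D4:**
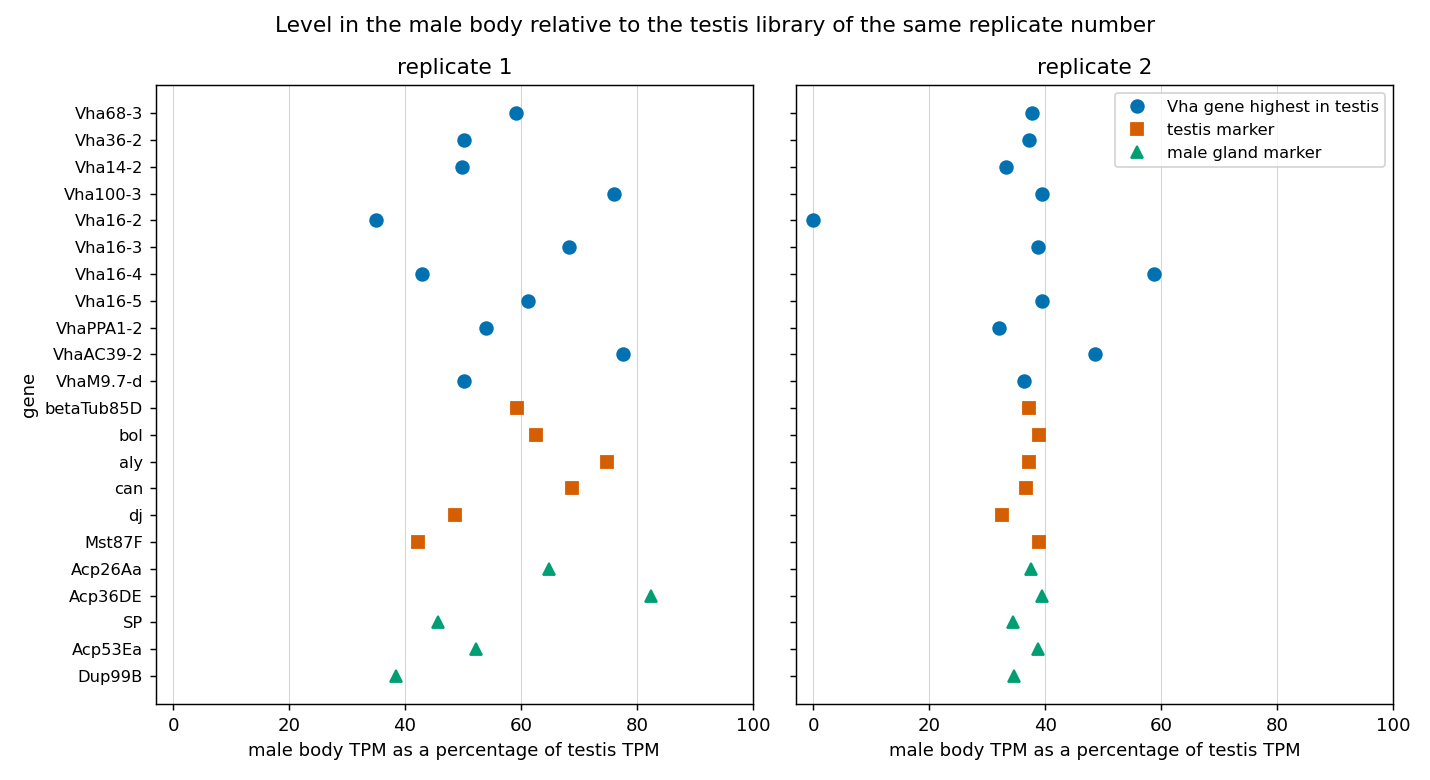
Male body TPM as a percentage of testis TPM, taken between like-numbered libraries, for the 11 V-ATPase genes highest in testis, 6 testis markers and 5 male gland markers. In replicate 2 most points of all 3 kinds lie between 32.1% and 39.5%, and in replicate 1 they spread from 34.9% to 82.4%.

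The traces of these genes in ovary were set beside the same markers. In ovary replicate 1 the median of the 11 genes was 1.35% of the testis level, beside 1.62% for testis markers and 1.26% for male gland markers. In ovary replicate 2 the medians were 0.217%, 0.275% and 0.255%. Vha68-3 was at 1.57% and 0.301% of testis, and VhaM9.7-d at 1.42% and 0.212%. Not every gene fell from replicate 1 to replicate 2. Vha16-4 was at 0% and 1.67%, Vha16-2 and VhaAC39-2 were listed at 0 in both, and the testis marker aly was at 9.18% and 10.6%. The part of testis RNA in these ovary values was not tested.

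Other genes of the pathway were taken from fixed lists of 5 regulators and 12 ion exchangers and lysosomal genes. In male heads against testes 5 of 5 regulators and 9 of 12 exchangers and lysosomal genes were higher and 0 lower, and in ovary against testis 4 and 8 were higher and 1 and 1 lower, beside the shares of all genes given for these comparisons. In male body against testis 3 and 8 were higher and 0 lower, in male head against male body 4 and 3 were higher and 0 and 1 lower, and in female body against male body 2 and 1 were higher and 1 and 1 lower. In female head against female body 1 and 3 were higher and 1 and 1 lower, against ovary 1 and 3 were higher and 1 and 0 lower, and in female body against ovary 1 and 1 were higher and 0 lower. The interaction called 2 and 0 as higher and 0 as lower. Between female and male heads 0 of 17 were called. CG31030, related to the accessory subunit Ac45 and the most abundant regulator in heads, was at 160 and 121 TPM in female heads and 152 and 161 in male heads, and between 0.124 and 7.31 TPM elsewhere, with a difference of 5.22 ± 0.23 (adjusted p = 1.8e-07) between female head and body. The regulator rogdi was at 97.3 to 117 TPM in heads, 76.3 and 62.6 in female bodies, 41.2 and 36.2 in male bodies, 71.8 and 81.3 in ovaries, and 15.9 and 17.7 in testes. Mitf, the transcription factor that drives V-ATPase and lysosomal genes in flies, was at 68.5 and 143 TPM in ovaries, 67.3 and 89.5 in female bodies, 31.4 to 39.1 in heads, 24.6 and 20.1 in male bodies, and 8.69 and 12.3 in testes. Of the lysosomal genes, the protease Cp1 was higher in ovary than in testis by 2.23 ± 0.28 (adjusted p = 5.7e-05), the protease cathD by 1.93 ± 0.35 (0.00067) and the membrane protein Lamp1 by 0.95 ± 0.21 (0.0029). On the median-of-ratios scale these 3 stood at 0.61, 0.32 and -0.68, and in ovary against testis 1 regulator and 1 exchanger or lysosomal gene were higher and 1 and 4 lower. In male heads against testes 4 and 6 were higher and 0 and 1 lower on that scale. There the interaction turned, with 0 called higher and 1 and 5 lower. Female body against male body had 1 and 0 higher and 1 and 6 lower. Male head against male body had 4 and 3 higher and 0 and 4 lower. For female head, 4 and 4 were higher and 1 and 1 lower against body, and 4 and 7 higher and 1 and 0 lower against ovary. TPM as deposited gave fewer calls. Male heads against testes had 4 and 4 higher there, and male body against testis 0 and 3, with 0 lower in each. Ovary against testis had 2 and 4 higher and 1 and 1 lower, and Lamp1 was not a call, at 0.79 (adjusted p = 0.12). Male head against male body had 1 and 2 higher and 0 and 1 lower on that scale, and the interaction called 0.

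The letters CACGTG, a core to which Mitf binds and which reads the same on both strands, were searched from 250 bases before to 50 bases after the annotated start of each gene. They were found in 2 of 33 V-ATPase genes (6.06%), Vha44 and VhaM9.7-d, and in 573 of 13671 protein coding genes (4.19%). The match is a description of these windows and no binding site.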

How the data were processed

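The PolyA fraction of 12 libraries was used, 2 for each of 6 groups named in the labels, and the other 25 of 37 samples were not analysed here. Per the labels and methods, the authors mapped reads to dm6 and deposited 1 StringTie gene table per library. The submitters' processing notes name cutadapt 1.15 and 1.18, STAR 2.6.1a and StringTie 2.0. TPM and mean per-base coverage were taken as deposited by the authors. Libraries were rescaled to 1e+06 TPM over 17522 nuclear genes. limma 3.58.1 in R 4.3.3 fitted group means of log2(TPM + 1) over 12 libraries for all genes with a mean of at least 1 TPM (lmFit, eBayes with trend), with two-sided tests and Benjamini-Hochberg adjustment within each of 9 comparisons and 1 interaction. No library was dropped or imputed. The fit was tested on simulated data. Differences on the log2(TPM + 1) scale understate the change of low genes.

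The replicate numbers in the labels are shared by all groups. Deviations of same-numbered libraries from their group means correlated at 0.278 to 0.725 (median 0.422) in 15 of 15 pairs of groups, so the numbers were taken as pairing the samples, and the fit with replicate number as a block is given where it changes a call.

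Alternatives were TPM as deposited, TPM without mt:ATPase8 only, the median of ratios, pseudocount 0.1, all genes above 0, a mean of at least 5 TPM, the block and leaving out each library. The members and lists were chosen with earlier results of these data known. Genes were named by rule: every paralog with a group mean of at least 10 TPM, the highest and lowest single-gene subunit, the 3 largest calls in each direction, and abundant genes of the pathway lists. Other genes given, such as Vha100-4, Vha16-2 and the scale-dependent subunits, were chosen after their values were seen. Of the listed names, ATP6AP2 and Acp70A were not found as such. Coordinates were matched to the Ensembl dm6 annotation, where 33 of 33 members had the same start and end, and sequences came from the RefSeq dm6 assembly. Coding identity was computed with Biopython 1.88.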

Additional observations from a re-analysis of the deposited data

Results flagged for a closer look

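A sex difference in bodies that differed from that in heads, by the interaction term of limma, was found for 11 V-ATPase genes. The value is the log2 sex difference (female minus male) in bodies minus that in heads. It was -6.19 for VhaM9.7-d, -5.30 for Vha68-3, -5.15 for Vha36-2, -4.43 for Vha14-2, -4.31 for VhaPPA1-2, -4.30 for Vha100-3, -2.89 for Vha16-5, -2.23 for Vha16-4, -1.78 for Vha16-3, -1.77 for VhaM9.7-a and -1.75 for VhaAC39-2, with adjusted p from 3.6e-05 (Vha14-2) to 0.044 (VhaM9.7-a). In 10 of the 11 the gene had its highest group mean in testis and passed the minimum only through testis and male body, so it had to differ and its p is no support. The other, VhaM9.7-a, was highest in male heads, and its sex difference was -2.06 in bodies and -0.29 in heads. Its call was lost with TPM as deposited, at -1.54 (adjusted p = 0.11), and its value ran from -3.49 to -0.98 over the alternatives. The part of testis RNA in the male body libraries was not tested.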

How the results depend on the processing

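Counts of V-ATPase genes called moved by more than 1.5 times in these settings. With TPM as deposited they were 3 in female head minus female body, 3 in female head minus ovary, 16 in male head minus testis and 14 in male body minus testis. Under the median of ratios they were 10 in female head minus female body and 13 in female head minus ovary. The replicate block gave 11 in female head minus ovary, and a mean of at least 5 TPM gave 2 in female body minus ovary and 7 in the interaction, where fewer genes were tested. Without 1 library in turn, counts ranged from 0 to 0 in female head minus male head, 13 to 15 in female body minus male body, 26 to 29 in ovary minus testis, 6 to 7 in female head minus female body, 4 to 6 in female head minus ovary, 4 to 5 in female body minus ovary, 15 to 19 in male head minus male body, 27 to 30 in male head minus testis, 13 to 23 in male body minus testis and 10 to 11 in the interaction. Signs turned with the median of ratios in ovary minus testis for Vha100-1 (-0.60), Vha26 (-0.59), Vha13 (-0.31), Vha14-1 (-0.22), Vha44 (-0.19), VhaM9.7-b (-0.54), VhaM8.9 (-0.26) and VhaSFD (-1.31), for VhaSFD without testis replicate 1 (-0.19, in a range up to 0.79 without testis replicate 2), in male head minus male body for Vha36-3 (-0.36) and VhaSFD (-0.044) with the median of ratios and for Vha36-3 with TPM as deposited (-0.23), in female body minus male body for VhaAC39-1 with the median of ratios (-0.19), and in female head minus ovary for Vha26 (-0.17) and Vha55 (-0.12) with TPM as deposited. The cause was not tested. Of 102 gene results named, 621 alternative values kept direction and side of the threshold, 36 lost the call and 31 gained it, and without 1 library 388 kept both, 39 lost the call and 4 gained it. With 2 libraries a group, a paralog share from 1 library lies within the spread by construction, so leaving 1 out does not test it. The calls that the block changed stand beside their results, and it moved no other count by over 1.5 times.

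TPM holds no read counts, so no counting interval was given, and with 2 libraries a group levels near 0 could not be ranked. TPM is relative, so a library in which a few genes take much of the RNA lowers all others, which the scale-free shares avoid. Reads that fit more than 1 paralog were assigned by the authors' programs in a way not given in the sources used here.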
